A study of Homo sapiens with 32 samples.

Results

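The transcripts described here are 8 genes that sense sterols, release the sterol regulatory element-binding proteins (SREBPs) from membranes, or control the uptake of low-density lipoprotein (LDL). They were chosen by symbol as SREBF1, SREBF2, SCAP, INSIG1, INSIG2, MBTPS1, MBTPS2 and MYLIP, and all 8 are among the 22610 entries of the deposited expression table. RNA-Seq was performed on SK-N-BE(2), an established human neuroblastoma line, plated in 6-well dishes and left overnight before treatment. Cells received either 20 μM cannabidiol (CBD) dissolved in ethanol or, as controls, ethanol alone at 0.1%, and were collected after 3, 6, 12 or 24 h, which makes 8 groups of 4 samples and 32 samples in all. Samples of a group are numbered replicates, and nothing in the labels says that they came from separate experiments, so p-values measure the spread between these samples.

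SREBPs are made as membrane proteins of the endoplasmic reticulum (ER), where SCAP, their sterol-sensing escort, holds them. When sterols are plentiful, INSIG proteins bind SCAP and keep the complex in the ER, and when sterols fall the complex moves to the Golgi, where the site-1 and site-2 proteases (MBTPS1 and MBTPS2) release the part of SREBP that enters the nucleus. SREBP-2, from SREBF2, mainly drives cholesterol synthesis and uptake genes, SREBP-1, from SREBF1, mainly drives fatty acid synthesis genes, and INSIG1 is itself an SREBP target. MYLIP, also called IDOL, is a ubiquitin ligase induced by the sterol-activated receptor LXR that sends lipoprotein receptors to degradation.

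Expression is given as FPKM, a fragment count scaled for library size and transcript length, and thus a unit that allows levels of different genes to be compared. Sequencing depth is not recorded in FPKM, and an estimate from the lowest values placed the samples between 0.786 and 1.21 times the median depth. The group medians of this estimate were lower with CBD than in vehicle at each time. With CBD they were 0.9185, 0.9574, 0.9243 and 1.001 at 3, 6, 12 and 24 h, against 1.05, 1.057, 1.001 and 1.019 in vehicle. The cells carried the neuroblastoma markers named for this check, with MYCN at 1421 to 2452 FPKM, HAND2 at 454 to 526, PHOX2A at 322 to 513, CHGA at 285 to 709, GATA3 at 112 to 134, ISL1 at 53.0 to 78.5 and DBH at 3.74 to 13.9. Of the 6 markers of other cell types, PTPRC, PECAM1, ALB and MYH11 were below 0.34 FPKM in every sample, EPCAM was at 1.57 to 4.61 and COL1A1 at 1.02 to 2.43. The 6 summed to 3.01 to 3.67 FPKM in vehicle and 3.26 to 3.86 with CBD at 3 h, to 3.41 to 3.98 and 3.29 to 3.86 at 6 h, to 3.58 to 3.90 and 4.20 to 4.66 at 12 h, and to 5.71 to 5.98 and 6.82 to 7.37 at 24 h. The 7 neuroblastoma markers named summed to 2996 to 3152 and 3137 to 3423 FPKM at 3 h, 3096 to 3233 and 3440 to 3553 at 6 h, 3216 to 3316 and 3700 to 3812 at 12 h, and 3278 to 3314 and 3547 to 3721 at 24 h. CBD and vehicle sums did not overlap from 6 h on for the neuroblastoma markers and from 12 h on for the others, and the part of either list in the results was not tested.

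In vehicle and CBD samples together, the 8 genes spanned a wide range of levels. SREBF2 was the most abundant, with a mean of 84.4 FPKM over the 32 samples, followed by INSIG1 at 51.8, MBTPS1 at 29.4, SREBF1 at 18.5, MBTPS2 at 12.7, SCAP at 12.4, INSIG2 at 7.40 and MYLIP at 5.46. All 8 passed the minimum mean of 1 FPKM that 12621 genes met. INSIG1 varied most across the samples, with a highest value 2.59 times its lowest, and MBTPS1 varied least.

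**Figure D1:**
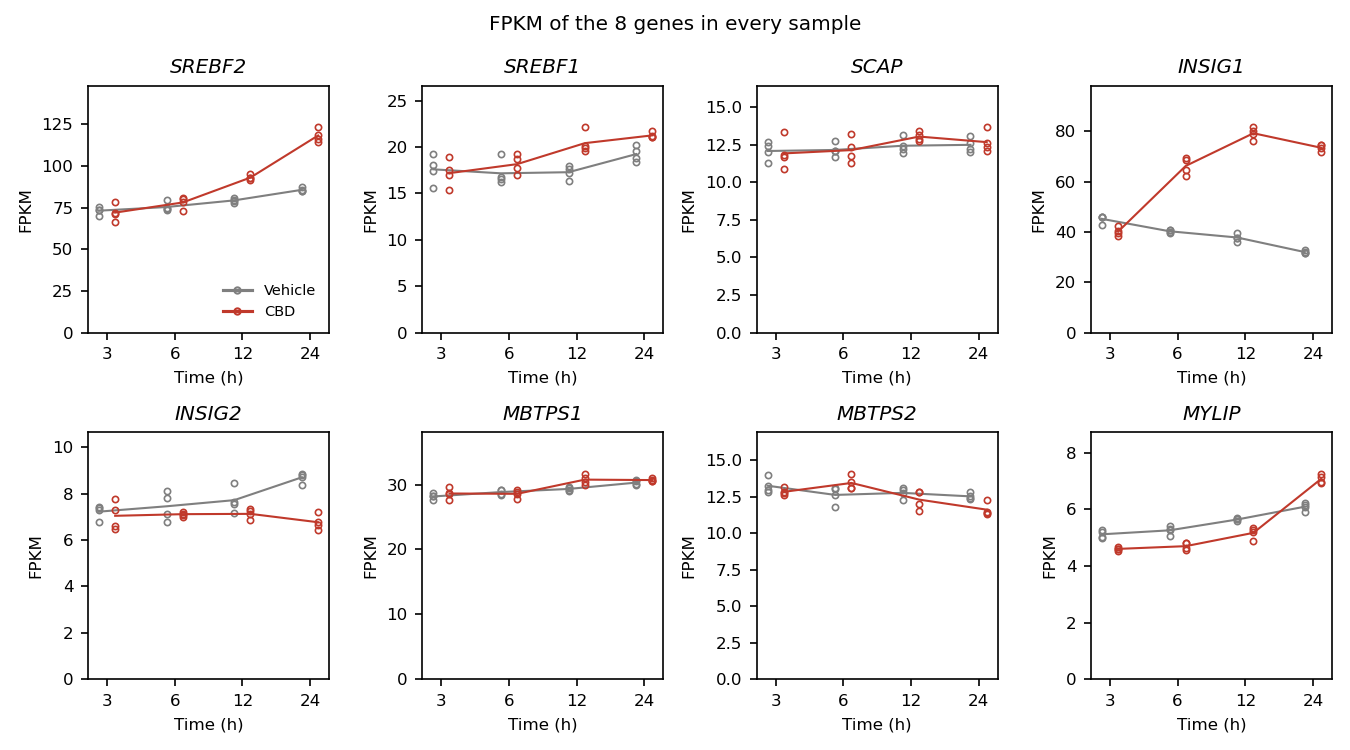
FPKM (vertical axis, from 0) of the 8 genes in each of the 32 samples, by time in hours (evenly spaced), with vehicle in grey and CBD in red; open circles are samples and lines join group means. INSIG1 and SREBF2 separate upwards with CBD, INSIG2 separates downwards at 24 h, and MYLIP with CBD lies below vehicle up to 12 h and above it at 24 h.

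Whether CBD altered each gene was tested against the vehicle samples of the same time, on the log2(FPKM + 1) scale with limma and Benjamini-Hochberg adjustment over all 12621 genes, and a difference was called at an adjusted p under 0.01. At 3 h, 2 of the 8 genes were lower with CBD (INSIG1 and MYLIP) and none was higher, where 1.28% of all genes tested were called lower and 1.18% higher. At 6 h, 1 gene was higher (INSIG1) and 1 lower (MYLIP), beside 4.07% and 6.13% of all genes. At 12 h, 4 were higher (INSIG1, SREBF2, SREBF1 and MBTPS1) and 1 lower (MYLIP), beside 8.85% and 11.2% of all genes. At 24 h, 3 were higher (INSIG1, SREBF2 and MYLIP) and 1 lower (INSIG2), beside 20.8% and 21.3% of all genes. In bulk RNA a lower value in all cells and a loss of the cells that express a gene most cannot be told apart. The median log2 difference of the 8 genes was -0.03, 0.02, 0.07 and 0.08 at 3, 6, 12 and 24 h, and that of all genes tested stayed between -0.0048 and 0.00662.

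**Figure D2:**
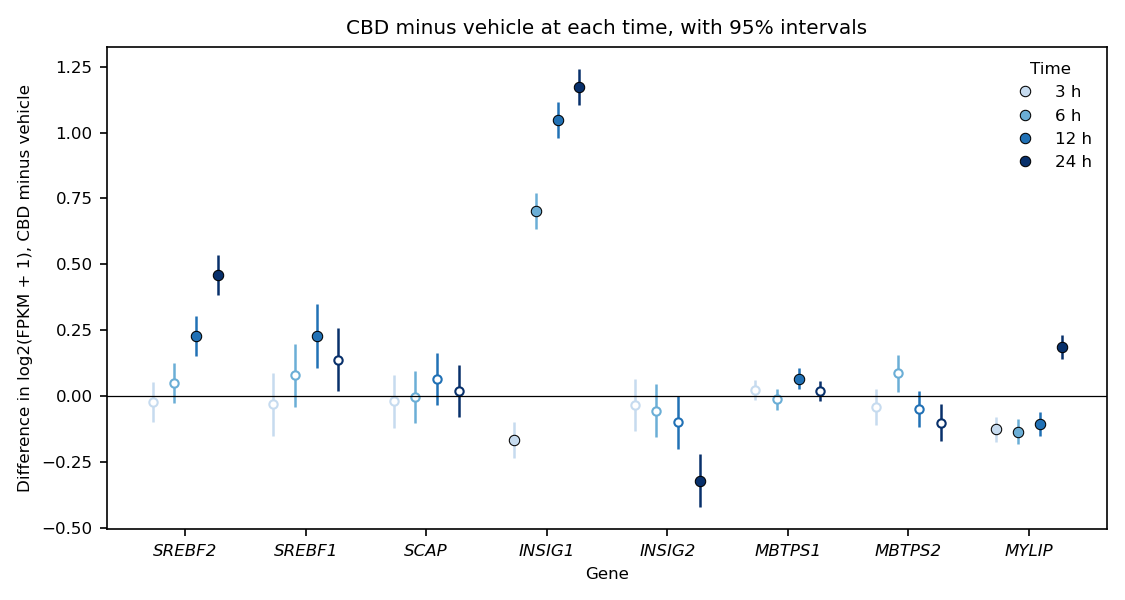
Difference in log2(FPKM + 1), CBD minus vehicle (vertical axis), for each gene (horizontal axis) at 3, 6, 12 and 24 h (light to dark), with bars for 95% intervals from limma; filled points are called at an adjusted p under 0.01 and open points are not. INSIG1 lies below 0 at 3 h and reaches 1.17 at 24 h, and the points of SCAP stay within 0.07 of 0.

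INSIG1 (chromosome 7, hg19, 155089486 to 155101945), the ER anchor that retains SCAP, had the largest difference of the 8 genes at every time. In vehicle samples at 3 h INSIG1 was at 45.9, 46.2, 45.9 and 42.9 FPKM, and with CBD it was at 42.5, 39.6, 38.3 and 40.3. The CBD samples all lay below the vehicle samples, by a gap of 0.355 FPKM. At 6 h vehicle samples were at 39.9, 40.8, 39.6 and 40.9 FPKM, against 68.8, 64.5, 69.4 and 62.5 with CBD. At 12 h they were at 39.7, 37.8, 37.7 and 36.1 FPKM, against 81.7, 79.1, 76.2 and 80.1. From 6 h on the ranges were far apart, with every CBD sample above every vehicle sample. At 24 h vehicle samples were at 31.8, 31.6, 32.1 and 32.7 FPKM, against 74.5, 74.5, 71.8 and 73.3 with CBD, so that the CBD mean was 2.30 times the vehicle mean.

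On the log2 scale the 3 h difference of INSIG1 was -0.17 (standard error 0.03, adjusted p = 0.00252, limma). From 6 h on INSIG1 was higher, by 0.70 (adjusted p = 1.11e-14), then by 1.05 at 12 h (adjusted p = 1.94e-18) and finally by 1.17 at 24 h (adjusted p = 5.73e-20). The fall at 3 h was not called in a fit of that time alone (adjusted p = 0.105), nor without CBD replicate 2 (0.0115), CBD replicate 3 (0.0151), vehicle replicate 2 (0.0113) or vehicle replicate 3 (0.0112); over all alternatives its adjusted p ranged from 0.000571 to 0.105. Relative depth at 3 h was 0.898 to 1.04 with CBD and 0.926 to 1.08 with vehicle, and with depth as a term of the model the fall was called.

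The INSIG1 levels of the groups ran, from the lowest, through vehicle at 24 h (32.0 ± 0.473 FPKM, SD, n = 4), vehicle at 12 h (37.8 ± 1.46), CBD at 3 h (40.2 ± 1.79), vehicle at 6 h (40.3 ± 0.658), vehicle at 3 h (45.2 ± 1.56), CBD at 6 h (66.3 ± 3.36), CBD at 24 h (73.5 ± 1.32) and CBD at 12 h (79.3 ± 2.32). Only the ranges of vehicle at 12 h, CBD at 3 h and vehicle at 6 h overlapped with a neighbour in this order. The highest INSIG1 level was thus at 12 h, while the difference from vehicle was largest at 24 h, where the vehicle level was at its lowest. In vehicle alone INSIG1 was lower at 24 h than at 3 h by -0.48 (adjusted p = 1.47e-12 from limma).

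The stretch upstream of INSIG1 is shown because sterol-responsive elements of SREBP target genes are known to lie close to the start of transcription. The sequences below are from RefSeq promoter windows and matched the genome once each (hg19, plus strand). Each covers the bases before the annotated start, and the INSIG1 window ends at base -103 from the RefSeq start, where the GENCODE gene begins. Capitals mark exact matches on either strand to TCACNCCAC, a form of the sterol regulatory element, to its shorter form CACNCCAC, which every match of the longer form contains, to the E-box CACGTG, to the NF-Y box CCAAT, and to the Sp1 box GGGCGG.
INSIG1 (chr7:155089338-155089485): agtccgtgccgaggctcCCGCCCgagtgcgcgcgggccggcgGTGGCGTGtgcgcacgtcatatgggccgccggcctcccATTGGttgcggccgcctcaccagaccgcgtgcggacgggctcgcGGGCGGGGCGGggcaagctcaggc
SREBF2 (chr22:42228859-42229108): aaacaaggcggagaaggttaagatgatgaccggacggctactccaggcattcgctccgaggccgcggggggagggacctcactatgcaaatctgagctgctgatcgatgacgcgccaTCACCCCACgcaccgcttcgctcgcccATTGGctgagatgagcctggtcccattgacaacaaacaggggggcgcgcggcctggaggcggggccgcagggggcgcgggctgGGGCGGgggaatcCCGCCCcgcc
MYLIP (chr6:16129067-16129316): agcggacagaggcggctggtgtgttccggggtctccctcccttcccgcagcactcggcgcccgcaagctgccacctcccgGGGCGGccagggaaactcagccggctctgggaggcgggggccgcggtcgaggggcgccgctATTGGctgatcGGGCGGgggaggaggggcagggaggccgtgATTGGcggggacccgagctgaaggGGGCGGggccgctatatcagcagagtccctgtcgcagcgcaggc

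The SREBF2 window was the only one of the 8 genes with the longer element, TCACCCCAC on the plus strand, from base -133 to -125, followed by an NF-Y box on the minus strand from base -106 to -102. That element occurs in 0.883% of the 35116 windows of 250 bases in the RefSeq table. The INSIG1 window held the shorter form on the minus strand, from base -208 to -201, followed by an NF-Y box from base -170 to -166, and 4.87% of all windows hold that shorter form. MYLIP held 2 NF-Y boxes (32.0% of all windows hold at least 1) and 3 Sp1 boxes (42.6%). The windows of MBTPS1 and MBTPS2 held none of these letters, and those of SREBF1 and INSIG2 held Sp1 boxes only. The E-box was found in the RefSeq windows of INSIG1 and SCAP, in both at positions that lie inside the GENCODE span of the gene given here, and 6.34% of all windows hold it. Among 15 genes of the SREBP target list followed below that have windows, 0 held the longer form and 4 the shorter. Of all genes with windows, 1.09% held the longer form and 5.9% the shorter. A match is a description of these letters and does not show that a factor binds there.

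SREBF2, the gene of the cholesterol-directed SREBP-2 (chromosome 22, hg19, 42229109 to 42303310), responded later than INSIG1. In vehicle samples SREBF2 was at 73.5, 75.3, 73.7 and 70.2 FPKM at 3 h and at 73.4, 79.4, 73.9 and 74.9 at 6 h. With CBD it was at 78.6, 71.6, 71.5 and 66.5 at 3 h and at 80.3, 78.7, 80.8 and 72.7 at 6 h, so the groups overlapped at both times. At 3 h CBD replicate 1 was the highest and CBD replicate 4 the lowest of the CBD samples, as they also were for SREBF1 and SCAP. Vehicle replicate 4 was likewise the lowest vehicle sample at 3 h for SREBF2, SREBF1 and SCAP, at 70.2, 15.6 and 11.3 FPKM. The difference was -0.02 at 3 h (adjusted p = 0.744) and 0.05 at 6 h (adjusted p = 0.367 from limma). At 12 h SREBF2 was at 80.9, 79.7, 78.9 and 78.0 FPKM in vehicle and 91.4, 95.3, 92.6 and 93.0 with CBD. At 24 h it was at 84.7, 87.5, 85.6 and 85.0 in vehicle and 116, 123, 119 and 115 with CBD. The ranges were separate at both later times, with gaps of 10.4 and 27.2 FPKM.

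SREBF2 was therefore higher by 0.23 at 12 h (standard error 0.04, adjusted p = 2.96e-05) and by 0.46 at 24 h (standard error 0.04, adjusted p = 6.88e-11, limma), with a CBD mean 1.38 times the vehicle mean at 24 h. Both calls held under every alternative tried. In the order of levels, the lowest 5 groups (CBD and vehicle at 3 and 6 h, and vehicle at 12 h) each overlapped with a neighbour, and vehicle at 24 h, CBD at 12 h and CBD at 24 h each stood apart. In vehicle alone SREBF2 was higher at 24 h than at 3 h by 0.23 (adjusted p = 6.31e-06). MIR33A, a microRNA gene carried within SREBF2, is a separate entry of the table at a mean of 1.69 FPKM and was not analysed here.

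SREBF1, the gene of SREBP-1 (chromosome 17, hg19, 17713713 to 17740316), was less abundant and more variable between replicates. Replicate 4 was the lowest vehicle sample at every time and the lowest CBD sample at 3, 6 and 12 h. At 12 h SREBF1 was at 17.9, 17.7, 17.2 and 16.4 FPKM in vehicle and 19.9, 22.1, 20.1 and 19.5 with CBD. At 24 h it was at 19.5, 20.2, 18.8 and 18.4 FPKM in vehicle and 21.2, 21.7, 21.0 and 21.1 with CBD. Every CBD sample was above every vehicle sample at these times, whereas at 3 and 6 h the ranges of the groups overlapped, from 15.3 to 19.2 FPKM and from 16.2 to 19.3 FPKM.

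SREBF1 was called higher at 12 h by 0.23 (standard error 0.06, adjusted p = 0.00402) and missed the threshold at 24 h, where the difference was 0.14 (adjusted p = 0.0499, limma). The call at 12 h was lost with relative depth in the model (adjusted p = 0.0112) and without CBD replicate 2 (0.0233), vehicle replicate 3 (0.0109) or vehicle replicate 4 (0.0171), and over all alternatives it ranged from 0.000105 to 0.0233. At 24 h the difference was called in a fit of that time alone (adjusted p = 0.00524), in a range over the alternatives from 0.00506 to 0.132. SREBF1 overlaps RAI1 on the opposite strand (mean 14.7 FPKM), and the methods describe the run as first-stranded without saying whether strand was used when FPKM were computed.

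SCAP, which escorts both SREBPs (chromosome 3, hg19, 47455171 to 47518616), was called at no time. Its samples lay between 10.9 and 13.7 FPKM in all 8 groups, and every group overlapped with its neighbours in level. Of the 4 vehicle samples at 12 h, the lowest was at 12.0 and the highest at 13.1 FPKM, against 12.8 and 13.4 with CBD. SCAP differed most from vehicle at 12 h, by 0.06 on the log2 scale (95% interval -0.04 to 0.16, adjusted p = 0.351, limma). The 24 h difference was 0.02 (95% interval -0.08 to 0.12).

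INSIG2, the second INSIG protein (chromosome 2, hg19, 118846028 to 118868573), moved opposite to INSIG1 at 24 h. At 24 h INSIG2 was at 8.87, 8.83, 8.74 and 8.39 FPKM in vehicle and 7.20, 6.42, 6.80 and 6.66 with CBD. The ranges were 1.19 FPKM apart, with all CBD samples lower. At 3, 6 and 12 h INSIG2 was between 6.49 and 8.48 FPKM in both treatments and the groups overlapped. The difference at 24 h was -0.32 (standard error 0.05, adjusted p = 3.67e-06, limma), and it was called under every alternative. In vehicle INSIG2 was higher at 24 h than at 3 h by 0.24 (adjusted p = 0.000108, limma). The CBD group at 24 h had the lowest mean of the 8 groups (6.77 ± 0.330 FPKM, SD, n = 4). Its range nevertheless overlapped with those of both CBD and vehicle at 3, 6 and 12 h.

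The balance of the INSIG pair was followed as the ratio of their FPKM within each sample. In vehicle INSIG1 was 5.88 to 6.75 times INSIG2 at 3 h, and the mean ratio was 5.43 ± 0.465 (SD, n = 4), 4.92 ± 0.518 and 3.68 ± 0.148 at 6, 12 and 24 h. With CBD the ratio was 5.74 ± 0.655, 9.31 ± 0.490, 11.1 ± 0.0433 and 10.9 ± 0.563 at the same times. The ratio with CBD was above every vehicle value from 6 h on, and at 24 h it was 2.95 times that of vehicle as a ratio of geometric means. SREBF2 was 4.20 ± 0.104, 4.31 ± 0.158 and 4.57 ± 0.193 times SREBF1 with CBD at 3, 6 and 12 h, in ranges that overlapped with vehicle, and 5.57 ± 0.122 at 24 h against 4.46 ± 0.157 in vehicle. With 4 against 4 samples the exact two-sided permutation test cannot go below 0.0286, and so cannot reach the threshold of 0.01 used for single genes. Both ratios had this lowest p-value at 24 h, and the INSIG ratio had it also at 6 and 12 h. After adjustment over the 8 tests these became 0.0572, above 0.05. Since each was already at the lowest p-value possible, the adjusted value does not measure how far apart the ratios were.

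**Figure D3:**
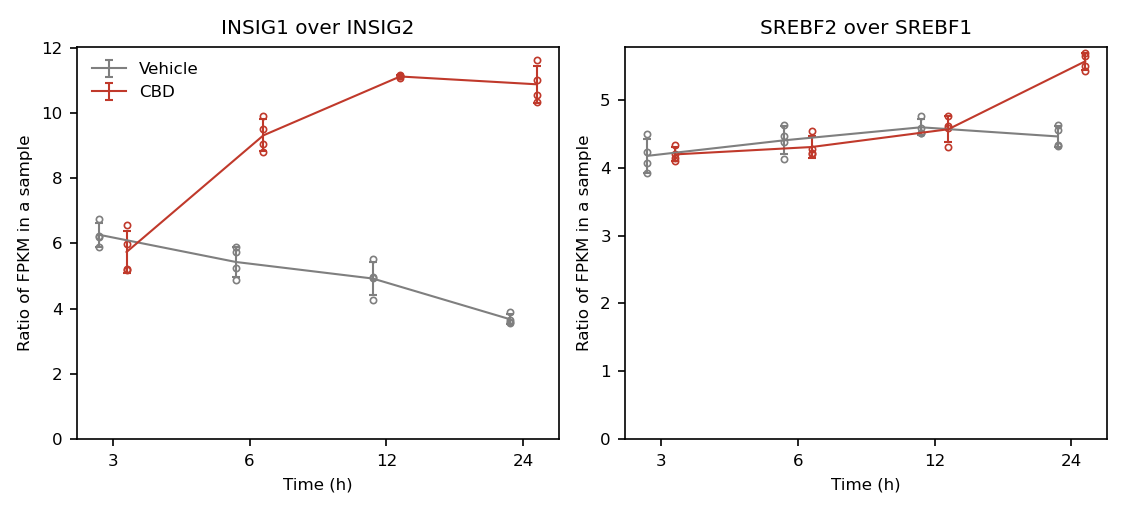
Ratio of INSIG1 to INSIG2 (left) and of SREBF2 to SREBF1 (right) in FPKM within each sample (vertical axes, from 0) by time in hours (evenly spaced), with vehicle in grey and CBD in red; circles are samples, lines join means and bars are SD of 4 samples. The INSIG ratio fell with time in vehicle to 3.68 and stood at 10.9 with CBD at 24 h, and the SREBF ratio parted from vehicle at 24 h.

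The proteases that cut SREBPs in the Golgi moved little. MBTPS1, the site-1 protease (chromosome 16, hg19, 84087366 to 84150547), was between 27.6 and 31.7 FPKM in all samples. At 12 h MBTPS1 was at 29.5, 29.6, 29.2 and 29.0 FPKM in vehicle and 30.4, 31.0, 31.7 and 30.0 with CBD. The CBD samples all lay above the vehicle samples. The difference of 0.07 (adjusted p = 0.00867, limma) was called, with a CBD mean 1.05 times the vehicle mean. The call was lost under 11 of 19 alternatives, those without any 1 sample other than CBD replicate 4 among them, with adjusted p from 0.00163 to 0.0481.

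MBTPS2, the site-2 protease (chromosome X, hg19, 21857735 to 21903541), was called at no time. At 24 h MBTPS2 was at 12.3, 12.8, 12.4 and 12.5 FPKM in vehicle and 12.3, 11.5, 11.3 and 11.3 with CBD. CBD replicate 1 stood above the other CBD samples and within 0.0716 FPKM of the lowest vehicle sample, without overlap. The difference was -0.10 (95% interval -0.17 to -0.03, adjusted p = 0.0131, limma), and without CBD replicate 1 it was -0.13 (adjusted p = 0.00362). At 6 h the difference had the other sign, 0.09 (adjusted p = 0.0750).

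MYLIP, the ligase that limits lipoprotein uptake (chromosome 6, hg19, 16129317 to 16148479), was lower with CBD up to 12 h and higher at 24 h. At 3 h MYLIP was at 5.03, 4.98, 5.21 and 5.27 FPKM in vehicle and 4.60, 4.69, 4.52 and 4.61 with CBD. At 6 h it was at 5.28, 5.07, 5.41 and 5.30 in vehicle and 4.55, 4.62, 4.81 and 4.83 with CBD, and at 12 h at 5.65, 5.71, 5.58 and 5.65 against 4.90, 5.26, 5.34 and 5.20. At each of these times all CBD samples were below all vehicle samples. At 24 h the order was reversed, with 6.09, 6.16, 6.22 and 5.92 FPKM in vehicle and 7.27, 6.92, 7.15 and 6.99 with CBD.

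On the log2(FPKM + 1) scale, which understates changes of a gene at this low level, MYLIP was lower by -0.13 at 3 h (adjusted p = 0.000769), -0.14 at 6 h (adjusted p = 8.72e-05) and -0.11 at 12 h (adjusted p = 0.000608), and higher by 0.19 at 24 h (adjusted p = 9.96e-08, all limma). In FPKM the CBD mean was 0.899, 0.894, 0.916 and 1.16 times the vehicle mean. With each time point fitted alone the falls at 3, 6 and 12 h were not called (adjusted p = 0.0728, 0.0185 and 0.0173), and they were called under every other alternative, as the rise at 24 h was under all (adjusted p from 1.36e-08 to 0.000211). The MYLIP level rose in vehicle from 3 to 24 h by 0.21 (adjusted p = 4.38e-09). MYLIP overlaps the microRNA entry MIR4639 on the same strand, listed at a mean of 9.29 FPKM, and the counting could have divided reads between them.

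Whether the effect of CBD changed with time was tested as the difference between effects, in contrasts that use the same samples as those above. Between 3 and 24 h, 4 of the 8 genes had a different effect, beside 27.2% of all genes in either direction. INSIG1 changed by 1.34 (adjusted p = 1.52e-17), SREBF2 by 0.49 (adjusted p = 4.29e-08), MYLIP by 0.31 (adjusted p = 1.45e-08) and INSIG2 by -0.29 (adjusted p = 0.00155, all limma). The step from 3 to 6 h was called for INSIG1 alone among the 8 (0.87, adjusted p = 2.49e-12), beside 2.1% of all genes. From 6 to 12 h INSIG1 was again the one called (0.35, adjusted p = 3.29e-05), beside 2.33%, and SREBF2 was at 0.18 (adjusted p = 0.0404). From 12 to 24 h MYLIP (0.29, adjusted p = 4.61e-07) and SREBF2 (0.23, adjusted p = 0.00263) were called, beside 8.15%, while INSIG1 was at 0.13 (adjusted p = 0.0687) and INSIG2 at -0.22 (adjusted p = 0.0269).

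The drift in culture without CBD is the background of these comparisons. Between 3 and 24 h in vehicle, 5 of the 8 genes were called, beside 57.8% of all genes. SREBF2, INSIG2, MYLIP and MBTPS1 (0.10, adjusted p = 3.31e-05, limma) rose and INSIG1 fell, while SREBF1 was at 0.12 (adjusted p = 0.0641), MBTPS2 at -0.08 (adjusted p = 0.0508) and SCAP at 0.04 (adjusted p = 0.432). For INSIG1 and INSIG2 the difference between CBD and vehicle at 24 h was thus opposite in sign to the drift in vehicle, and for SREBF2 and MYLIP it had the same sign. The vehicle samples at 24 h enter both comparisons, with opposite signs, which by itself favours opposite results. For INSIG2 the mean went from 7.23 FPKM at 3 h to 8.71 at 24 h in vehicle, and from 7.05 to 6.77 with CBD.

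SREBP target genes were followed as a list of 18 enzymes and transporters of sterol and fatty acid synthesis. The list was chosen with earlier results of these data known, so its counts are a description and not an independent test. Of these, 2 were lower and none higher with CBD at 3 h, beside 1.28% and 1.18% of all genes tested. At 6 h 11 were higher and none lower, beside 4.07% and 6.13%, and all 18 were higher at 12 h (8.85% of all genes) and at 24 h (20.8%). The 2 lower at 3 h became 0 in a fit of that time alone and 5 under quantile normalization, 5 without CBD replicate 1, 4 without CBD replicate 4, and 1 without CBD replicate 2 or vehicle replicate 2, 3 or 4. Their median log2 differences at the successive times were -0.09, 0.21, 0.56 and 0.63. At 24 h the largest were HMGCS1 (1.55), which makes the precursor of mevalonate, MSMO1 (1.06), a sterol demethylation enzyme, and FDFT1 (0.97), the squalene synthase. INSIG1 at 24 h (1.17) lay within the range of this list, 0.26 to 1.55, as SREBF2 did (0.46), whereas MYLIP at 0.19, SREBF1 at 0.14 and INSIG2 at -0.32 lay below it.

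**Figure D4:**
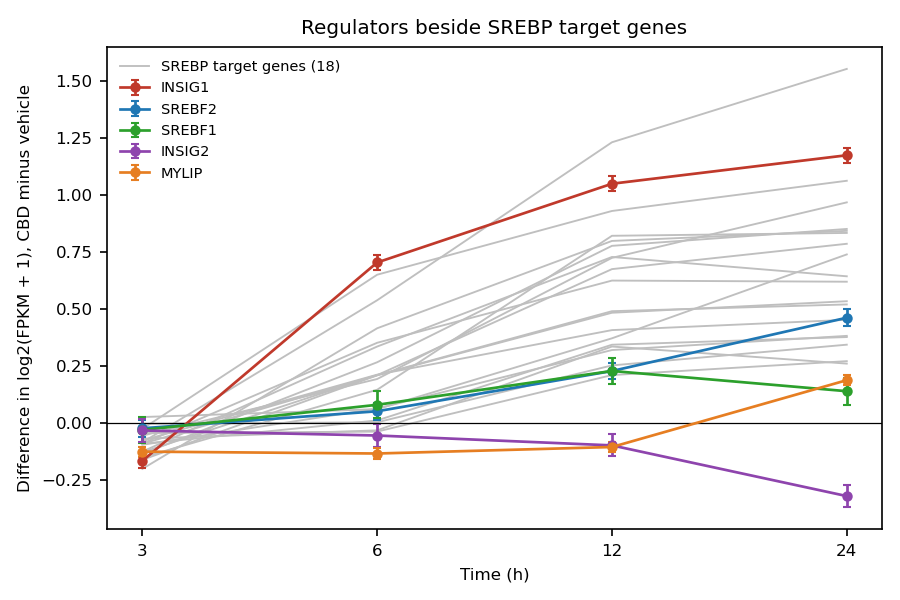
Difference in log2(FPKM + 1), CBD minus vehicle (vertical axis), by time in hours (evenly spaced), for 18 SREBP target genes (grey lines) and 5 of the regulators (coloured, with standard error bars). INSIG1 runs among the uppermost target genes from 6 h on, SREBF2 within their range, and INSIG2 ends at -0.32.

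The genes whose pattern over the 32 samples was most like that of a regulator were sought by Pearson correlation of log2(FPKM + 1) among all genes tested, as a description over samples that share the treatment and time groups. INSIG1 was most like MSMO1 (r = 0.99), SQLE (0.972) and MVK (0.972), and over the 8 group means like MSMO1 (0.994), IBTK (0.993) and DNAJB9 (0.99). SREBF2 was most like SFRP1 (0.982), RHBDF2 (0.981) and SLC2A4 (0.977), and over group means like PHC1 (0.998), SFRP1 (0.998) and FAM89A (0.997). SREBF1 was most like PIEZO1 (0.933), SCARB1 (0.93) and SPPL2B (0.924), and MYLIP like ARHGAP26 (0.955), LSAMP (0.954) and DISC1 (0.953). INSIG2 was most like RSBN1 (0.878), NBEA (0.871) and STARD4-AS1 (0.86), and MBTPS1 like CAMKK2 (0.898), SLC4A2 (0.886) and AKAP1 (0.883). SCAP was most like FAM189B (0.83), ERGIC1 (0.793) and B4GALNT1 (0.789), and MBTPS2 like PCNXL4 (0.842), LOC101927027 (0.828) and CRIPT (0.807). Over group means the 3 most alike were ZFP28, WDR26 and CACNB1 for SREBF1 (0.995 to 0.983), LSAMP, ACBD7 and DISC1 for MYLIP (0.987 to 0.979), SLC38A10, GPI and SYTL4 for INSIG2 (0.983 to 0.971), CAMKK2, LARS and SLC4A2 for MBTPS1 (0.97 to 0.962), TMCO3, TMEM57 and BCAR1 for SCAP (0.971 to 0.937), and PCBD2, TIRAP and TMEM185A for MBTPS2 (0.974 to 0.948).

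The other genes of the pathway were counted at 24 h in 6 further lists, beside the 20.8% higher and 21.3% lower among all genes. These lists too were chosen with earlier results of these data known. Of 15 genes that degrade INSIG and other sterol-regulated ER proteins, 2 were higher and 6 lower. MARCH6 (0.12), an ER ubiquitin ligase, was among the higher ones, and RNF145 (-0.38), a sterol-responsive ER ligase, UFD1L (-0.24), which helps to extract proteins from the ER, and SYVN1 (-0.15), another ER ligase, were the lowest. RNF145 was already lower at 6 h (-0.11, adjusted p = 0.000716) and 12 h (-0.28, adjusted p = 3.32e-10, limma).

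Of 11 genes that carry the SCAP-SREBP complex from the ER to the Golgi, 2 were higher and 3 lower at 24 h. SEC24D (0.26) and SEC24B (0.15), cargo adaptors of the COPII coat, were higher, and SAR1A (-0.26), the GTPase that starts the coat, PAQR3 (-0.14), which tethers the complex at the Golgi, and SEC23B (-0.10), a coat subunit, were lower. Of 6 other substrates of the same proteases, 2 were higher, ATF6 (0.19) and CREB3L2 (0.12), and 2 lower, CREB3L4 (-0.22) and CREB3 (-0.17), all of them membrane-bound transcription factors. Of 13 cofactors or turnover factors of nuclear SREBP, 3 were higher and 6 lower. LPIN1 (0.37), a phosphatidate phosphatase that restrains nuclear SREBP, MED15 (0.19), a Mediator subunit that SREBP binds, and SP1 (0.11) were higher, and NFYA (-0.15), NFYC (-0.15) and the acetyltransferase EP300 (-0.14) were the lowest.

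Of 17 lipoprotein receptors and genes that handle them, 6 were higher and 3 lower at 24 h. USP2 (0.33), a deubiquitinase that acts on MYLIP, and LRP8 (0.29), a receptor that MYLIP is known to degrade, were among the higher, and VLDLR (-0.34), another such receptor, SORT1 (-0.25), a sorting receptor, and UBE2D2 (-0.09), a ubiquitin-conjugating enzyme, were lower. VLDLR was lower with CBD at all 4 times, by -0.14, -0.26, -0.20 and -0.34, and LRP8 was higher at 6, 12 and 24 h, by 0.20, 0.44 and 0.29. Of 7 LXR receptors and targets, 2 were higher, LPCAT3 (0.39), a phospholipid acyltransferase, and ABCG1 (0.15), a sterol exporter, and none was lower.

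Some of these smaller calls at 24 h were near the threshold and were lost with 1 sample left out or under another setting. The call of MARCH6 was lost without CBD replicate 1 (adjusted p = 0.0147) and that of CREB3 without CBD replicate 3 (0.0103) or 4 (0.0231). The calls of SYVN1 and EP300 were lost without any 1 sample other than CBD replicate 2 or vehicle replicate 1 (adjusted p up to 0.0332 and 0.0325, limma), and without vehicle replicate 3 only 3 of the 13 nuclear cofactors were lower. With 1 sample left out the difference of SYVN1 stayed between -0.169 and -0.128, and that of EP300 between -0.167 and -0.127. Both calls were also lost with no filter on low FPKM (0.0129 and 0.0127) and with a depth term (0.0144 and 0.0171). That of SYVN1 was lost with 5 added before the logarithm (0.0101). UBE2D2 was not called without CBD replicate 2 (0.0127) or 3 (0.0132), or vehicle replicate 3 (0.0113) or 4 (0.0175). In a fit of 24 h alone MARCH6, SEC23B and NFYC were not called (adjusted p = 0.0172, 0.0135 and 0.0127, limma). At 3 h VLDLR was not called in a fit of that time alone (adjusted p = 0.0613).

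**Figure D5:**
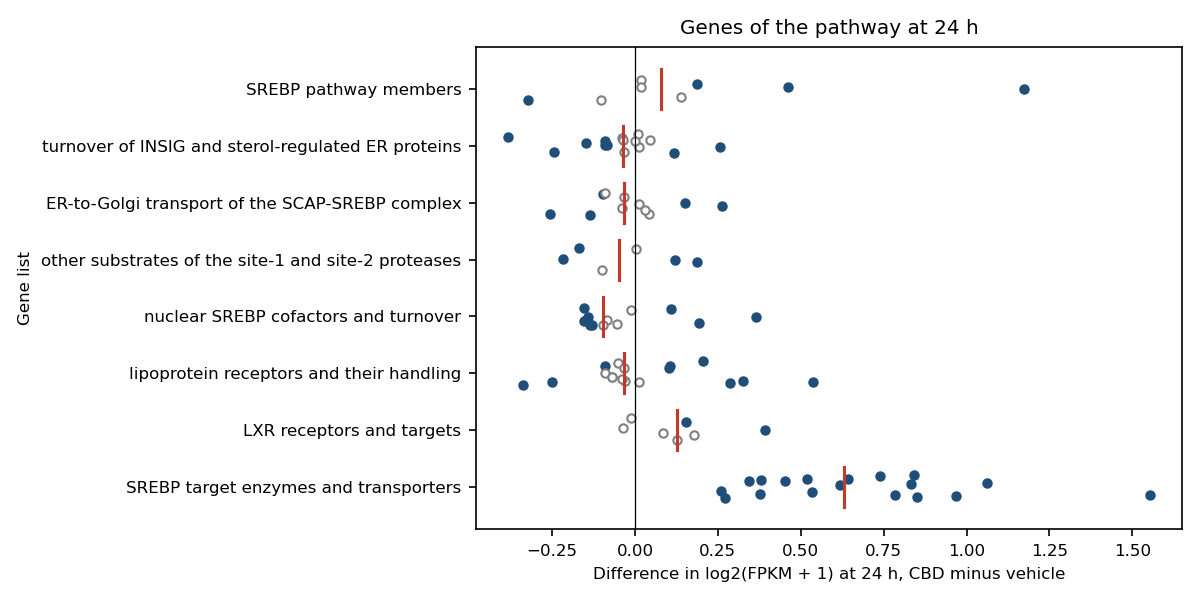
Difference in log2(FPKM + 1), CBD minus vehicle at 24 h (horizontal axis), of every gene tested in the 8 lists (vertical axis); filled points are called at an adjusted p under 0.01, open points are not, and the red bar is the median of the list. The 18 SREBP target genes all lie above 0, and the other lists have genes on both sides.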

How the data were processed

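The authors trimmed single-end reads of 50 bases (Trimmomatic, version 0.36 in the submitters' processing notes), mapped them with TopHat against hg19 and derived a FPKM value for each gene and sample in Cufflinks; these deposited FPKM were not rescaled here. A second deposited table holds the authors' Cuffdiff comparisons and was not used. Groups came from the sample labels.

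The 12621 genes whose FPKM averaged 1 or more entered 1 model of the 8 group means on the log2(FPKM + 1) scale, fitted with limma (3.58.1, under R 4.3.3; eBayes with trend, Benjamini-Hochberg within each comparison, threshold 0.01), tested on simulated data first. The exact permutation tests of the ratios (scipy version 1.17.1) were added after the values were seen. An estimate of relative depth used the lowest FPKM steps of 1414 genes detected in few samples. Positions are from GENCODE version 44 on hg19 and promoters from RefSeq.

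The members, lists and alternatives were chosen with earlier results of these data known. Genes named are the 8 members, the 3 most correlated with each, and for each list up to 3 higher and 3 lower with the largest differences among those called at 24 h; VLDLR, LRP8 and RNF145 were followed over time after their values were seen. Some genes that the rules would name are not reported here. Alternatives were other added values (0.1 and 5), filters, scalings, a depth term, eBayes settings, a replicate block, single time points, a threshold of 0.05 and each sample left out.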

Additional observations from a re-analysis of the deposited data

Results flagged for a closer look

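For 4 genes the effect of CBD differed between time points in a test of the difference itself (limma). Between 3 and 24 h the effect on INSIG1 moved by 1.34, on SREBF2 by 0.49, on MYLIP by 0.31 and on INSIG2 by -0.29 on the log2 scale. Between neighbouring times the effect on INSIG1 moved by 0.87 from 3 to 6 h and by 0.35 from 6 to 12 h, and from 12 to 24 h that on SREBF2 moved by 0.23 and that on MYLIP by 0.29.

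In 2 of the 64 groups of 4 values (8 genes in 8 groups) a single sample stood far from the other 3, with a gap to the next above Dixon's 95% critical share of the group's range, where chance flags about 1 group in 20. Vehicle replicate 4 at 3 h had the lowest INSIG1 level of its group, 42.9 FPKM. CBD replicate 1 at 24 h had the highest MBTPS2 level of its group, 12.3 FPKM.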

How the results depend on the processing

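Of 26 called differences of single genes, 20 kept their direction and call under every alternative run for them, and none changed sign. The 26 pool CBD against vehicle with changes of effect and drift in vehicle. Those changes and that drift were not covered by the fits of single time points. The calls lost were all of CBD against vehicle. They were INSIG1 and MYLIP at 3 h, MYLIP at 6 h, and SREBF1, MBTPS1 and MYLIP at 12 h. Of 38 called differences of list genes, 30 were kept. With each time point fitted alone, the number of the 8 genes called fell from 2 to 0 at 3 h, from 2 to 1 at 6 h and from 5 to 3 at 12 h, and the calls over all genes fell from 310 to 26 at 3 h and from 1288 to 405 at 6 h. With relative depth in the model, 3 genes were called at 12 h and 186 of all genes at 3 h. The 2 LXR genes higher at 24 h became 5 with no filter on low FPKM and 1 with a mean FPKM of at least 5. These counts are over different genes, since the filter sets which of the 10 listed are tested, 7 in the main fit. ABCG1 was not tested at the minimum of 5 and kept its call under every other alternative. With a threshold of 0.05, 2 genes in place of 1 changed effect between 6 and 12 h. Leaving out 1 sample gave 1 to 2 genes at 3 h (1 without CBD replicate 2 or 3 or vehicle replicate 2 or 3) and 3 to 5 at 12 h (3 without CBD replicate 2 or vehicle replicate 3 or 4).

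Of 19 uncalled differences, 6 changed sign and 2 gained a call. SCAP at 6 h was at 0.00456 under median-ratio scaling and 0.00019 under quantile normalization, and with 1 sample left out it ranged from -0.04172 to 0.02946. The ranges were -0.08463 to 0.01863 for SREBF1 at 3 h, -0.06674 to 0.01257 for SREBF2 at 3 h, -0.07084 to 0.01958 for SCAP at 3 h, -0.02343 to 0.000922 for MBTPS1 at 6 h and -0.01569 to 0.04085 for SCAP at 24 h. The causes were not tested.

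Deviations of same-numbered CBD and vehicle samples correlated at -0.0757 to 0.0935 across genes, and 5 of 16 CBD samples correlated best with their own number. A replicate block gave 447, 1570, 2806 and 5641 calls over all genes at 3, 6, 12 and 24 h, in place of 310, 1288, 2533 and 5314. Whether samples with the same number were handled together was not tested. With a replicate block, 5 of the 8 genes were called at 24 h in place of 4, SREBF1 being added (adjusted p = 0.00506). FPKM carry no read counts, so no counting interval can be given.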
